A study of Mus musculus with 30 samples.

Results

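The genes described here are 7 genes grouped under the headings of social memory and the CA2 field of the hippocampus. They are the receptors for the neuropeptides oxytocin and vasopressin (Oxtr, Avpr1a and Avpr1b) and 4 genes used as markers of CA2 pyramidal neurons (Rgs14, Amigo2, Pcp4 and Necab2). They were chosen by name, with no threshold on their values, and are 7 of the 17477 genes in the deposited table, in which all 7 were found and tested. RNA-seq was performed on the hippocampus of 30 adult C57 BL/6J mice, 1 library per mouse, to ask how social isolation (SI) after weaning alters gene expression. Group-housed (GH) mice of the same sex were the controls, giving 8 SI and 7 GH females (animals numbered 41 to 79) and 7 SI and 8 GH males (animals numbered 1 to 39). The labels give no transgene and no drug treatment for any mouse. GH mice shared cages, the labels do not say which mice were cage mates, and p-values treat each mouse as independent. Whole hippocampus was used, so fewer CA2 cells and less RNA per CA2 cell cannot be told apart.

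CA2 is a narrow field between CA3 and CA1 whose pyramidal neurons are needed for remembering other individuals. Oxytocin and vasopressin are released from hypothalamic neurons, and their receptors are G protein-coupled receptors that act mainly through Gq and phospholipase C. In the mouse hippocampus Avpr1b is largely restricted to CA2 pyramidal neurons, Oxtr is found in CA2 and CA3 pyramidal neurons and in interneurons, and Avpr1a is better known from other brain regions. Rgs14 encodes a regulator of G protein signalling that restrains synaptic plasticity in CA2, Amigo2 encodes a cell-adhesion protein of neurons, Pcp4 encodes a small protein that binds calmodulin, and Necab2 encodes a neuronal calcium-binding protein with an EF hand.

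Total counts on genes per library ranged from 18809307 to 100844898, with a median of 41297502. The 98 pairs of mice within a group all differed by more than counting error, their lowest chi-square being 8.71 for each degree of freedom. SI males 25, 33 and 39 stood apart from the other 12 males on the first principal component, which held 54.2% of the variance of the males. They also had the steepest length slopes, the slope being the change of a library's log2 CPM (counts scaled to the size of the library) from the mean of all mice per doubling of transcript length. Their slopes were -0.48, -0.46 and -0.37, against -0.13 to 0.18 in the other 27 mice, so their long transcripts were low and their short transcripts high. For the 7 genes, values in males are therefore also given without these 3 mice. Markers of hippocampal fields were present in every library, the summed CPM of 4 CA1 genes being 303 to 523, of 3 CA3 genes 147 to 227 and of 5 dentate gyrus genes 237 to 401. Markers of neighbouring tissue were present as well, and 6 choroid plexus genes summed to between 39.5 and 4888 CPM.

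Levels between genes were compared as CPM per kilobase of the longest annotated coding transcript. Pcp4 (641 bases) stood highest with a median of 209 over the 30 mice and a range of 169 to 561. Necab2 (1976 bases) followed with 49.7 (41.5 to 64.2) and Rgs14 (2356 bases) with 42.7 (35.2 to 49.2). The ranges of these neighbours overlapped, although Necab2 was above Rgs14 in 28 of 30 mice. Amigo2 (2871 bases) had a median of 6.16 (4.27 to 9.41) and Oxtr (4568 bases) one of 1.54 (0.99 to 2.64), neither overlapping its neighbours in the order. Avpr1a (2671 bases) and Avpr1b (4023 bases) were the lowest, with 0.134 (0.0159 to 0.254) and 0.0809 (0.0286 to 0.157) CPM per kilobase. Their ranges overlapped, and Avpr1a was the higher of them in 25 of 30 mice. In every library each CA2 marker gene was above each receptor gene on this scale.

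In females 0 of the 7 genes were DEGs (differentially expressed genes, Benjamini-Hochberg adjusted p under 0.05 in edgeR's quasi-likelihood test), against 3.89% of the 16026 genes tested. At an unadjusted p under 0.05 there were 2 of 7, Rgs14 and Necab2, against 20.2% of all genes. In males 0 of 7 were DEGs, where 0% of 15833 genes were, and 1 of 7, Pcp4, had an unadjusted p under 0.05 against 13.0% of all genes. DESeq2 with the same surrogate variables and limma-voom also called 0 of the 7 in either sex. No gene of the 7 had SI and GH mice that did not overlap in CPM, which held for 0.3% of genes in females and 0.0568% in males. The median Log2FC (the fitted log2 difference of SI from GH) of the 7 genes was 0.024 in females and 0.051 in males, beside 0.0077 and -0.0020 over all genes tested.

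**Figure D1:**
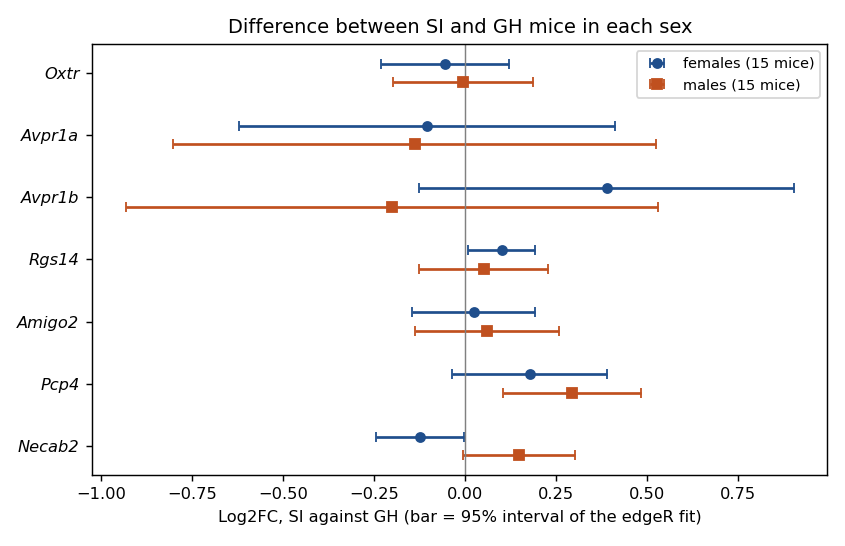
Log2FC of SI against GH for each of the 7 genes, with females as circles and males as squares (15 mice each) and bars for the 95% interval of the edgeR fit. The intervals of Avpr1a and Avpr1b are the widest, and that of Pcp4 in males lies above 0 at 0.10 to 0.48 without passing the adjusted threshold.

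Among the receptors, Oxtr (ENSMUSG00000049112), the oxytocin receptor gene, lies on the minus strand of chromosome 6 of NCBIM37 from 112423678 to 112440884. It had 5.85 to 7.61 CPM (median 6.91) in SI females and 5.49 to 8.61 (median 6.66) in GH females. The groups overlapped almost entirely, with no SI female above or below all GH females. The Log2FC was -0.056 (standard error 0.0834, edgeR adjusted p = 0.765), with a 95% interval of -14.9% to 8.70% as a change in level under SI. In males Oxtr had 4.54 to 12.1 CPM (median 7.45) under SI and 5.94 to 9.89 (median 8.28) under GH. The SI males were spread more widely, with a coefficient of variation of 36.7% against 16.6% in GH males. SI male 8 was the highest of all 30 mice, and SI males 25, 33 and 39 were the lowest 3 at 4.54, 5.37 and 4.93. The Log2FC in males was -0.0048 (standard error 0.0914, edgeR adjusted p = 0.991), and the unadjusted difference of mean log2 CPM went from -0.22 to 0.14 without those 3 mice (exact permutation tests, two-sided p = 0.298 and 0.41).

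Avpr1a (ENSMUSG00000020123), the gene of the vasopressin V1a receptor, lies on chromosome 10 of NCBIM37 from 121885555 to 121890509 on the plus strand. Its counts were few, 1 to 38 per library and 492 over all mice, so that counting alone gives a coefficient of variation of about 24.7% per mouse against an observed 40.97%. In females it had 0.238 to 0.601 CPM (median 0.347) under SI and 0.230 to 0.561 (median 0.359) under GH, with overlapping groups. In males it had 0.0424 to 0.441 CPM (median 0.311) under SI and 0.229 to 0.679 (median 0.382) under GH. The 3 SI males below all GH males included animals 25 and 33, which held 1 and 3 counts. The Log2FC was -0.10 in females (standard error 0.245, edgeR adjusted p = 0.862) and -0.14 in males (standard error 0.315, edgeR adjusted p = 0.881). The 95% interval in males runs from -42.7% to 44.0%. The difference of mean log2 CPM in males was larger than the fitted value, -0.67 with all males (exact permutation test, two-sided p = 0.0962) and -0.29 without SI males 25, 33 and 39 (exact permutation test, p = 0.37).

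Avpr1b (ENSMUSG00000026432), the gene of the vasopressin V1b receptor, lies on chromosome 1 of NCBIM37 from 133495816 to 133508577 on the plus strand. It held 3 to 57 counts per library and 454 over all mice. In females it had 0.157 to 0.542 CPM (median 0.299) under SI and 0.115 to 0.383 (median 0.231) under GH, and 2 of the 8 SI females were above all GH females. The Log2FC in females, 0.39, was the largest of the 7 genes but had a standard error of 0.244 and an edgeR adjusted p of 0.398. In males it had 0.163 to 0.632 CPM (median 0.351) under SI and 0.118 to 0.540 (median 0.405) under GH, and the Log2FC was -0.20 (standard error 0.347, edgeR adjusted p = 0.833). The male difference of mean log2 CPM was -0.065 with all males and 0.0071 without SI males 25, 33 and 39 (exact permutation tests, two-sided p = 0.845 and 0.992). The intervals in the sexes overlap and reach from -8.37% to 87.2% in females and from -47.6% to 44.4% in males.

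**Figure D2:**
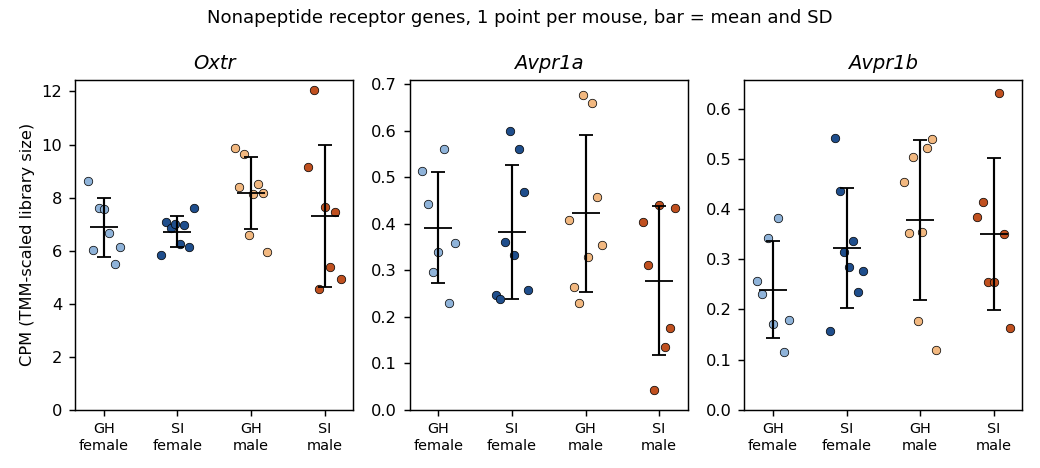
CPM of the receptor genes in each mouse, 1 point per mouse in the 4 groups, with bars for the mean and SD and each vertical axis starting at 0. Oxtr is spread from 4.54 to 12.1 CPM in SI males, and Avpr1a and Avpr1b stay below 0.7 CPM in all 30 mice.

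Of the CA2 markers, Rgs14 (ENSMUSG00000052087) lies on chromosome 13 of NCBIM37 from 55471093 to 55486048 on the plus strand. In females it had 87.3 to 112 CPM (median 104) under SI and 87.5 to 107 (median 97.2) under GH. The groups overlapped, with 3 SI females above and 1 below all GH females. The Log2FC was 0.10 (standard error 0.0438, unadjusted p = 0.0341, edgeR adjusted p = 0.201), and without surrogate variables the difference of 0.084 had an exact permutation p of 0.187. In males Rgs14 had 82.8 to 111 CPM (median 107) under SI and 91.4 to 116 (median 98.0) under GH. The male Log2FC was 0.051 (standard error 0.0837, edgeR adjusted p = 0.822). In the edgeR fit without SI males 25, 33 and 39, with 4 surrogate variables, it was -0.072. The difference of mean log2 CPM was -0.0030 with all males and 0.031 without those 3 (exact permutation tests, two-sided p = 0.97 and 0.721). The spread was the smallest of the 7 genes, with a coefficient of variation of 8.99% over all mice.

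Amigo2 (ENSMUSG00000048218) lies on the minus strand of chromosome 15 of NCBIM37 from 97074505 to 97077718. In females it had 15.3 to 24.9 CPM (median 18.8) under SI and 14.0 to 27.02 (median 18.1) under GH. In males the SI mice, at 15.04 to 18.4 CPM (median 16.9), lay inside the range of the GH mice, 12.3 to 20.6 (median 17.1). No mouse of an SI group was above or below all GH mice of its sex. The Log2FC was 0.024 in females (standard error 0.0795, edgeR adjusted p = 0.906) and 0.062 in males (standard error 0.0939, edgeR adjusted p = 0.806), with 95% intervals of -9.52% to 14.2% and -9.02% to 19.7%. The male value was -0.013 without SI males 25, 33 and 39.

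Pcp4 (ENSMUSG00000090223) lies on chromosome 16 of NCBIM37 from 96689213 to 96747400 on the plus strand and has the shortest transcript of the 7. In females it had 110.5 to 251 CPM (median 136) under SI and 116 to 159.9 (median 121) under GH. The groups overlapped, and 2 SI females, animals 41 and 53, were above all GH females while 2 were below all of them. The Log2FC was 0.18 (standard error 0.101, edgeR adjusted p = 0.348), and it was 0.076 without animal 41. In males Pcp4 had 108 to 359.7 CPM (median 208) under SI and 116 to 184 (median 131) under GH. The 4 SI males above all GH males were animals 25, 33, 39 and 38, at 359.7, 297, 284 and 208 CPM, and SI male 7 was below all GH males. The Log2FC of 0.29 (standard error 0.0899, unadjusted p = 0.00444) did not pass the adjusted threshold (edgeR adjusted p = 0.3).

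The male value of Pcp4 depended on which mice were used and on what was in the model. The difference of mean log2 CPM was 0.62 with all males (exact permutation test with 6435 splits, p = 0.0232, two-sided, adjusted p = 0.162 over 14 tests). Without SI males 25, 33 and 39 it was 0.18 (exact permutation test over 495 splits, p = 0.356), and the edgeR Log2FC was 0.20 with an adjusted p of 0.614. With single males left out the edgeR Log2FC ranged from 0.14 (without SI male 38) to 0.46 (without SI male 7). Without SI male 27 it was 0.37 with an adjusted p of 0.0207. That was the only fit in which any of the 7 genes was a DEG, and 2413 genes of all tested were DEGs there. With the length slope of each library as a covariate in place of surrogate variables the Log2FC of Pcp4 was 0.15 (edgeR adjusted p = 0.726).

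Necab2 (ENSMUSG00000031837) lies on chromosome 8 of NCBIM37 from 121970619 to 121996540 on the plus strand. In females it had 82.1 to 98.3 CPM (median 92.4) under SI and 82.0 to 122 (median 95.9) under GH, the SI mice lying inside the range of the GH mice. The female Log2FC was -0.12 (standard error 0.0576, unadjusted p = 0.0469, edgeR adjusted p = 0.238). In males it had 98.3 to 127 CPM (median 117) under SI and 90.6 to 116 (median 102) under GH, and 4 of the 7 SI males were above all GH males. The male Log2FC was 0.15 (standard error 0.0735, edgeR adjusted p = 0.394). The difference of mean log2 CPM in males was 0.17 (exact permutation test, two-sided p = 0.0211, adjusted p = 0.162 over 14 tests). It was 0.14 without SI males 25, 33 and 39 (exact permutation test, p = 0.109), while the edgeR Log2FC without them, with 4 surrogate variables, was -0.0026.

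**Figure D3:**
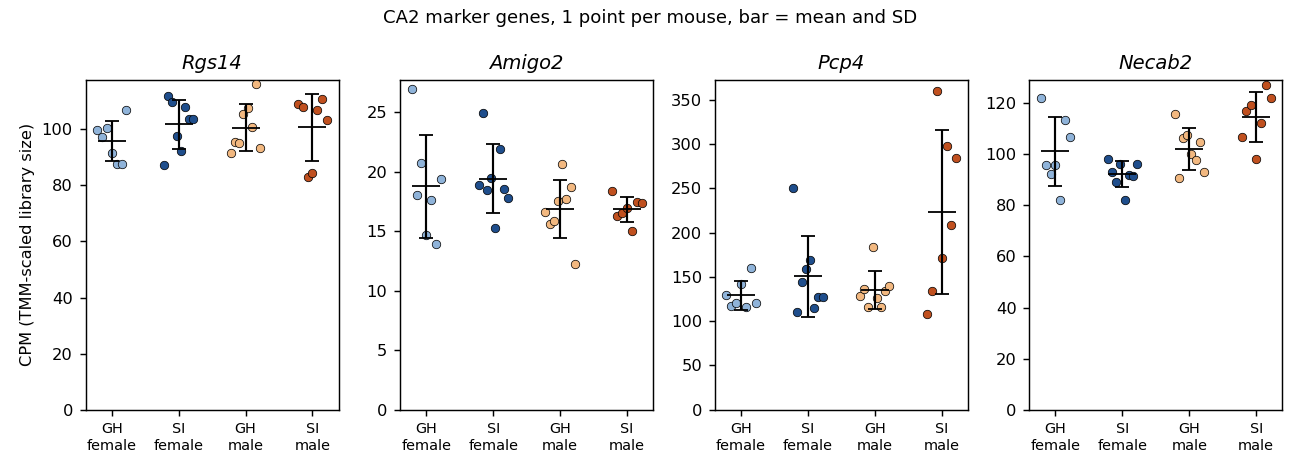
CPM of the CA2 marker genes in each mouse, 1 point per mouse in the 4 groups, with bars for the mean and SD and each vertical axis starting at 0. Pcp4 reaches 284 to 359.7 CPM in 3 SI males, and Necab2 lies between 98.3 and 127 CPM in SI males and between 82.1 and 98.3 CPM in SI females.

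For the CA2 markers, the 250 bases before the start of transcription are shown for Pcp4 and Necab2, which had the lowest p-values of the 7 in males, and for Amigo2 as a contrast in base composition. They are RefSeq promoter windows on GRCm38.p6, read along the gene's strand, and 5 of the 7 genes were matched in that table. The windows are chr16:96467356-96467605 on the plus strand (Pcp4), chr8:119446469-119446718 on the plus strand (Necab2) and chr15:97247288-97247537 on the minus strand (Amigo2). Capitals mark the GC box GGGCGG or its reverse complement CCGCCC.
Pcp4: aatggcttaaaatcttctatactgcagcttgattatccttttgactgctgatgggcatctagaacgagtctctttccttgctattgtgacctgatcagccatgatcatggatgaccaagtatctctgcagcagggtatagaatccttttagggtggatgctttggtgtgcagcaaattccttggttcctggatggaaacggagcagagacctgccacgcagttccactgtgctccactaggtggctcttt
Necab2: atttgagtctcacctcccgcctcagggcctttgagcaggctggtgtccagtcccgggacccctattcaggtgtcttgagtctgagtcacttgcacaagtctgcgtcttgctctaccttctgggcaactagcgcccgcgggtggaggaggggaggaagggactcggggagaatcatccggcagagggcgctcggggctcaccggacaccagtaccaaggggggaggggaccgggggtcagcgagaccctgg
Amigo2: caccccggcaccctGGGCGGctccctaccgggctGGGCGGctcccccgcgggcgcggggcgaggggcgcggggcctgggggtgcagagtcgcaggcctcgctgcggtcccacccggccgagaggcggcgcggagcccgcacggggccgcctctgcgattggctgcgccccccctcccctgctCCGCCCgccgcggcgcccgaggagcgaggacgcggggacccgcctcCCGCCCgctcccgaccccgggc
GC content was 46.8% in the Pcp4 window, 64% in that of Necab2 and 84% in that of Amigo2. On both strands the windows were searched for the GC box, the E-box CACGTG, the TATA box TATAAA, the letters TGACG of the cAMP response element and AGAACA of the glucocorticoid response element. Amigo2 held 4 GC boxes, their first bases 236, 216, 68 and 22 bases before the start, and no other match. Pcp4 and Necab2 held no match to any of the 5. Of 32851 windows of the same length, 32.7% held the GC box, 6.02% the E-box, 12.4% the TATA box, 17.8% TGACG and 16.1% AGAACA, and no motif overlaps another in the Amigo2 window.

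The difference between the sexes in the response to SI was tested as an interaction over all 30 mice. Of the 7 genes 0 passed (edgeR, adjusted p under 0.05), where 0% of the 16391 genes tested did, and DESeq2 and limma-voom also passed 0 of the 7. At an unadjusted p under 0.05 there was 1 of 7, Necab2, against 7.49% of all genes. Necab2 was on opposite sides of 0 in the sexes, with a Log2FC that was 0.24 lower in females than in males (-0.24, standard error 0.0922, unadjusted p = 0.0157, edgeR adjusted p = 0.617). Avpr1b had the largest interaction, 0.51, but with a standard error of 0.448 and an edgeR adjusted p of 0.818. The interaction of Pcp4 was 0.025 (standard error 0.139, edgeR adjusted p = 0.979) and became -0.51 without surrogate variables (edgeR adjusted p = 0.293).

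Between GH females and GH males, which are the controls of the comparisons above, 0 of the 7 genes were DEGs against 6.39% of genes (3.36% higher and 3.04% lower in females), and DESeq2 and limma-voom also called 0 of 7. The 2 of 7 with an unadjusted p under 0.05, against 26.5% of all genes, were both receptors with a lower level in females. Avpr1b differed by -0.79 (standard error 0.317, edgeR adjusted p = 0.112), with 0.240 ± 0.0962 CPM (SD, n = 7) in GH females and 0.378 ± 0.159 (SD, n = 8) in GH males. Oxtr differed by -0.21 (standard error 0.0995, edgeR adjusted p = 0.177), with 6.87 ± 1.10 CPM (SD, n = 7) and 8.16 ± 1.35 (SD, n = 8). The fitted differences of the CA2 markers between the sexes lay between -0.076 and 0.075.

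How the genes varied among themselves was measured as correlations of log2 CPM, each centred on its group mean, over the 27 mice without SI males 25, 33 and 39. All 27 points share normalization within their library. Of 21 pairs, 5 passed an adjusted p of 0.05 by Pearson's r (100000 permutations within groups). The share of pairs of other genes that would pass was not tested, so this count has no background to be set against. Oxtr and Avpr1b varied together across mice, with r = 0.67 and rho = 0.63 (permutation, adjusted p = 0.00378 and 0.00913). The r of this pair was 0.62 without the 2 mice farthest from the median of Oxtr, 0.53 in the 15 females and 0.79 in the 12 males, and it was 0.56 with the length slope regressed out of both genes. Rgs14 and Amigo2 had r = 0.54 and rho = 0.57 (permutation, adjusted p = 0.0114 and 0.0197), with 0.65 without the 2 farthest mice and 0.47 with the length slope regressed out.

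Avpr1b and Amigo2 had r = 0.52 and rho = 0.45 (permutation, adjusted p = 0.0476 and 0.132), with 0.46 without the 2 farthest mice and 0.36 with the length slope regressed out. Pcp4 ran against both receptors, with r = -0.59 and rho = -0.61 for Avpr1b (permutation, adjusted p = 0.0043 and 0.00913) and r = -0.50 and rho = -0.53 for Oxtr (adjusted p = 0.0377 and 0.0345). Without the 2 farthest mice these were -0.61 and -0.53. With the length slope regressed out they were -0.34 for Avpr1b and -0.19 for Oxtr. Pcp4 was not positively correlated with Rgs14 or Amigo2 (r = -0.42 and -0.31). With the length slope regressed out these were -0.28 for Rgs14 and 0.14 for Amigo2. Avpr1a had no r above 0.26 in size with any other of the 7 genes.

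**Figure D4:**
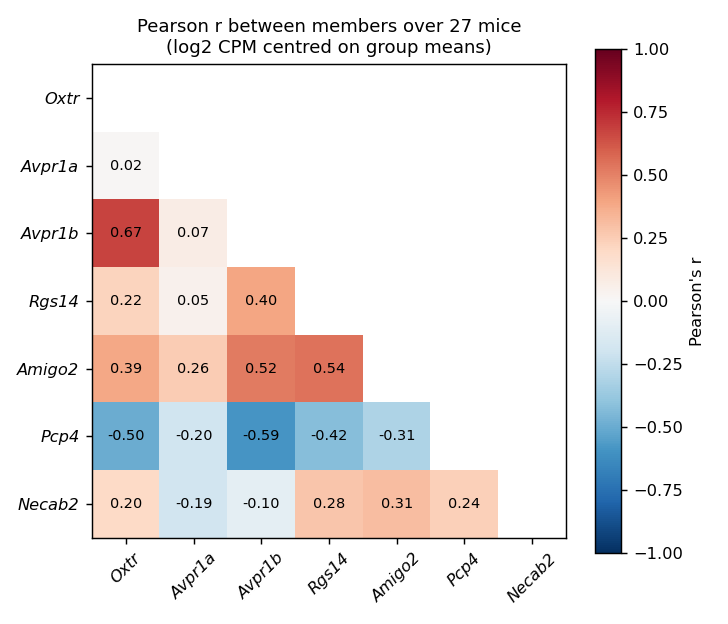
Pearson's r between the 7 genes over 27 mice, on log2 CPM centred on group means, with red for positive and blue for negative values and the value printed in each cell. The highest value is 0.67 (Oxtr and Avpr1b) and the lowest -0.59 (Avpr1b and Pcp4).

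The levels were also set against the length slope of the libraries and against marker lists, in 98 correlations over the same 27 mice. The level of a list was the mean of log2-transformed CPM over its genes, with a constant added to each CPM, and not their summed CPM. Pcp4 followed the length slope most closely, with r = -0.79 and rho = -0.89 (permutation p = 1e-05, the smallest that the permutations can give, adjusted p = 0.00098). The r was -0.69 in females, -0.92 in males and -0.88 without the 2 mice farthest from the median. Avpr1b had r = 0.52 with the length slope (rho = 0.59, permutation, adjusted p = 0.0538 and 0.0331) and 0.51 without the 2 farthest mice. Oxtr had r = 0.50 (rho = 0.54, permutation, adjusted p = 0.0806 and 0.0657). SI males 25, 33 and 39, left out here, had the lowest slopes of all 30 mice, with the highest Pcp4 and the lowest Oxtr. For Avpr1b r was 0.29 over all 30 mice. SI male 33 went against the relation, with the highest Avpr1b of all at 0.632 CPM. SI males 25 and 39 had 0.255 and 0.1625 CPM, below the median of 0.351 in SI males.

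**Figure D5:**
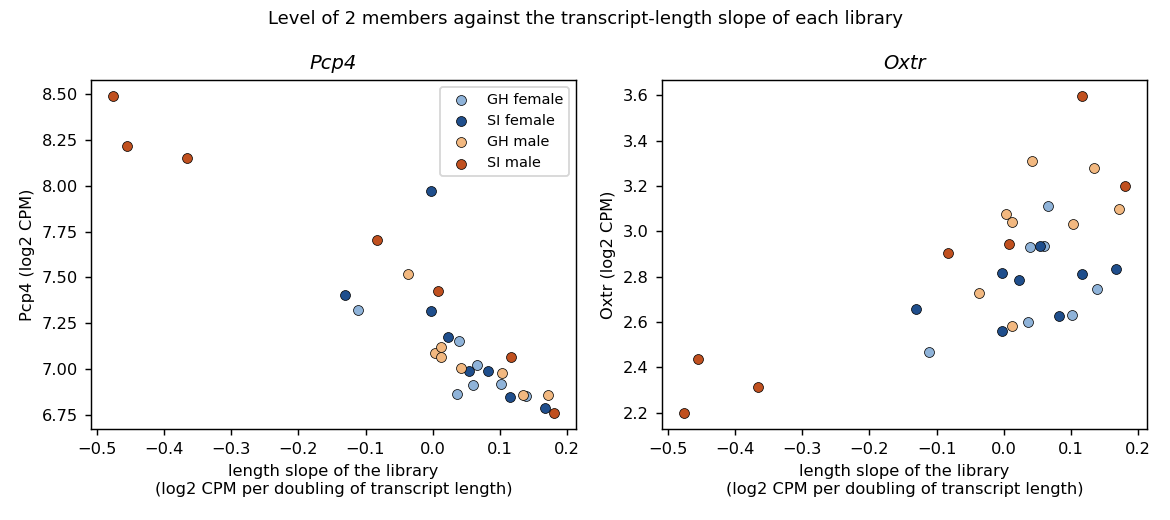
Log2 CPM of Pcp4 (left) and Oxtr (right) in each of the 30 mice against the length slope of its library, in log2 CPM per doubling of transcript length, coloured by group. SI males 25, 33 and 39 are the 3 points at slopes of -0.48 to -0.37, at the top for Pcp4 and at the bottom for Oxtr.

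Pcp4 is also strongly expressed in striatum and thalamus, and its level was set against markers of other cells. With the striatum list (Drd1, Ppp1r1b, Adora2a and Rgs9) it had r = 0.62 and rho = 0.35, neither passing the adjusted threshold (permutation, adjusted p = 0.0806 and 0.225). Its r was 0.19 without the 2 farthest mice and 0.79 with the length slope regressed out. With the dentate gyrus list it had r = -0.61 and rho = -0.67 (permutation, adjusted p = 0.0299 and 0.023) and with the oligodendrocyte list r = 0.58 and rho = 0.62 (permutation, adjusted p = 0.0519 and 0.0331). These values of r became -0.085 and 0.34 with the length slope regressed out. With the list of other CA2-enriched genes it had r = -0.54 and rho = -0.62 (permutation, adjusted p = 0.0538 and 0.0331), and r became 0.21. For the thalamus list r was 0.59 and rho 0.43 (permutation, adjusted p = 0.0806 and 0.186), with 0.23 without the 2 farthest mice and 0.71 with the length slope regressed out.

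The thalamus list (Tcf7l2, Rora, Lef1, Prkcd and Ramp3) summed to 68.8 to 171 CPM in SI males, the highest being animal 38, and to 65.2 to 83.2 in GH males. In females it summed to 77.7 to 197 under SI, the highest being animal 41, and to 71.2 to 122 under GH. In males all 5 of its genes had a positive Log2FC and 4 had an unadjusted p under 0.05, where 13% of all genes did. None was a DEG, where 0% of all genes were, and Tcf7l2 was the largest at 1.05 (edgeR adjusted p = 0.295). The difference of mean log2 CPM of Tcf7l2 was 0.75 with all males and 0.81 without SI males 25, 33 and 39. SI male 38, kept in both, had 38.3 CPM of Tcf7l2, beside medians of 10.2 in SI males and 6.55 in GH males. With the level of the list, as defined for the correlations, as a further covariate the Log2FC of Pcp4 was 0.15 in males (edgeR adjusted p = 0.986) and 0.13 in females (edgeR adjusted p = 0.118). The striatum list summed to 80.1 to 137 CPM in SI males and 80.5 to 123 in GH males, and its part in the values of Pcp4 was not tested.

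Among the other genes, Amigo2 followed the list of other CA2-enriched genes, with r = 0.62 and rho = 0.59 (permutation, adjusted p = 0.0299 and 0.0331). Its r was 0.67 without the 2 farthest mice and 0.43 with the length slope regressed out. Amigo2 and Rgs14 ran against the astrocyte list, with r = -0.55 and -0.61 (permutation, adjusted p = 0.0299 and 0.0441) and -0.43 and -0.48 without the 2 farthest mice, and by rho neither passed (permutation, adjusted p = 0.0551 and 0.0691). Rgs14 had r = 0.58 with the CA1 list (rho = 0.52, permutation, adjusted p = 0.0607 and 0.0691), which was 0.38 without the 2 farthest mice. Avpr1b had r = 0.56 and rho = 0.58 with the dentate gyrus list (permutation, adjusted p = 0.0538 and 0.0331) and r = 0.52 and rho = 0.59 with the other CA2-enriched genes (permutation, adjusted p = 0.0799 and 0.0331). With the length slope regressed out these were 0.31 and 0.20 by r. With the other CA2-enriched genes Rgs14 had r = 0.47 and Necab2 r = -0.16 (permutation, adjusted p = 0.087 and 0.628). Necab2, Avpr1a, Avpr1b and Oxtr passed with no list by r.

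Across 16390 genes and the same 27 mice, the genes most like each of the 7 by Pearson's r were as follows. For Oxtr they were Syt17 (0.88), Kctd10 (0.82) and Pnmal1 (0.79), and for Avpr1b they were Stim2 (0.83), Cap1 (0.81) and Matn2 (0.81). Avpr1a had lower values, with Postn (0.66), Acss3 (0.63) and a gene without a symbol, ENSMUSG00000115302 (0.63). For Rgs14 they were Fam131a (0.82), Rem2 (0.80) and Map2k1 (0.80), and for Amigo2 they were Osbpl2 (0.85), Hspa2 (0.83) and Parp1 (0.81). For Pcp4 they were Necap2 (0.89), Rhoc (0.87) and Bcl7c (0.86), and for Necab2 they were Syngr3 (0.83), Ly6h (0.80) and Cbln1 (0.80). None of the 7 genes was among the 3 most like another of the 7, which with 3 places among 16390 genes says little about how they relate. The length slope was not regressed out of these values, and its part in them was not tested.

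A list of 8 other CA2-enriched genes (Cacng5, Map3k15, Ntf3, Ptpn5, Actn2, Nr3c2, Fgf2 and Adora1) was tested in the same fits. In females 0 of 8 were DEGs, and the 1 gene at an unadjusted p under 0.05 was Fgf2, a growth factor gene, at -0.16 (edgeR adjusted p = 0.194), where 20.2% of all genes were at that level. In males 0 of 8 were DEGs, and the 3 at an unadjusted p under 0.05 were Cacng5 at 0.30, Ntf3 at 0.25 and Actn2 at 0.22 (edgeR adjusted p = 0.383, 0.354 and 0.374), where 13.0% of all genes were. Their differences of mean log2 CPM were -0.028, 0.45 and -0.054 with all males and 0.21, 0.17 and 0.26 without SI males 25, 33 and 39. Cacng5, which encodes an AMPA receptor auxiliary subunit, had the largest Log2FC of the list in both sexes, 0.17 in females (edgeR adjusted p = 0.408). Between GH females and GH males Fgf2 was the only DEG of the list, where 3.36% of all genes were DEGs higher in females. It was higher in females by 0.37 (standard error 0.0915, edgeR adjusted p = 0.0204). The median Log2FC of the list was 0.023 in females and 0.042 in males.

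The ligands and the signalling steps behind the receptors were covered by 15 genes, of which 13 were tested within a sex, while Avpr2 had no value here and the oxytocin gene Oxt was too low. Oxt had 0 to 53 counts per library. Avp, the vasopressin gene, had 0.627 to 4.60 CPM (median 1.27) in SI females and 0.443 to 1.38 (median 1.26) in GH females. Its Log2FC of 0.74 (standard error 0.356, unadjusted p = 0.0528, edgeR adjusted p = 0.255) was the largest of the list in females, and in males it was -0.0029 (edgeR adjusted p = 0.999). The medians of the groups were close, and SI female 68 was the highest of the females.

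In females 2 of the 13 were DEGs, both lower in SI, against 2.93% of genes that were lower DEGs. Plcb3, a phospholipase C that Gq activates, had 25.9 to 31.4 CPM (median 27.1) in SI females and 29.6 to 37.0 (median 31.7) in GH females. It fell by 0.21 on the log2 scale (standard error 0.0499, edgeR adjusted p = 0.0297). Itpr1, the receptor through which inositol trisphosphate releases calcium, had 354 to 441 CPM (median 404) in SI females and 379.8 to 538 (median 500.5) in GH females. It fell by 0.19 on the log2 scale (standard error 0.0445, edgeR adjusted p = 0.0266). Without surrogate variables, or with the position digit of the sample titles in their place, no gene in females was a DEG, these included. The groups overlapped for both genes, and Gna11, a Gq-family subunit, had -0.13 (edgeR adjusted p = 0.0536).

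In males 0 of the 13 were DEGs, where 0% of all genes were, and 2 had an unadjusted p under 0.05, against 13% of all genes. Itpr1 had the largest Log2FC, -0.45 (standard error 0.104, unadjusted p = 0.00042, edgeR adjusted p = 0.295), with 102 to 436 CPM (median 239) in SI males and 341 to 477 (median 433) in GH males. Its difference of mean log2 CPM was -0.94 with all males and -0.29 without SI males 25, 33 and 39. Plcb3 had -0.16 in males (edgeR adjusted p = 0.494). Between GH females and GH males both were DEGs, higher in females, where 3.36% of all genes were DEGs higher in females. Plcb3 differed by 0.25 (standard error 0.0689, edgeR adjusted p = 0.0344) and Itpr1 by 0.25 (standard error 0.0766, edgeR adjusted p = 0.0453). The median Log2FC of the 13 genes was 0.023 in females and -0.045 in males.

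Of 17 genes for relatives and partners of the CA2 marker proteins, 0 were DEGs in either sex, with 3 in females and 2 in males at an unadjusted p under 0.05, beside 20.2% and 13.0% of all genes. Amigo3, a relative of Amigo2, had 0.35 in females (unadjusted p = 0.0107, edgeR adjusted p = 0.114) and -0.034 in males. Pcp4l1, the closest relative of Pcp4, had 0.22 in males (unadjusted p = 0.00278, edgeR adjusted p = 0.295) and 0.11 in females. The small GTPase gene Rap2a had -0.18 in males (unadjusted p = 0.00161, edgeR adjusted p = 0.295). Without SI males 25, 33 and 39 the differences of mean log2 CPM of Pcp4l1 and Rap2a were 0.063 and -0.11, against 0.30 and -0.34 with all males. Adora2a, which is also on the striatum list, had the largest Log2FC in both sexes, 0.40 in females and 0.25 in males (edgeR adjusted p = 0.494 and 0.447). In females SI mouse 41 had 9.48 CPM of it, while the medians were 2.30 under SI and 2.23 under GH.

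Of 54 marker genes on 12 lists of hippocampal fields and other cells, 3 were DEGs in females and 0 in males, beside 3.89% and 0% of all genes. The 3 were no longer DEGs without surrogate variables or with the position digit in their place. Aldh1l1 and Slc1a3, of the 5 astrocyte genes, were lower in SI females, by -0.27 and -0.24 (edgeR adjusted p = 0.0215 and 0.014), and all 5 astrocyte genes had a negative Log2FC in both sexes. Flt1, of the 4 endothelial genes, was higher in SI females by 0.14 (edgeR adjusted p = 0.0496), where 0.961% of genes were higher DEGs. The summed astrocyte list was 1361 to 1975 CPM in SI females and 1723 to 2220 in GH females, and its part in the values of Rgs14 and Amigo2 in females was not tested. The genes with the largest Log2FC of the remaining lists in females were Chrnb4 (0.93, medial habenula), Prkcd (0.49, thalamus), Cldn5 (0.38, endothelial), Otx2 (0.32, choroid plexus), Mbp (-0.25, oligodendrocyte), C1ql2 (0.23, dentate gyrus), P2ry12 (-0.14, microglia), Gad1 (0.13, interneuron), Pou3f1 (-0.054, CA1) and Nectin3 (-0.039, CA3). In males they were Chrnb4 (-0.69), Kcnj13 (-0.29, choroid plexus), Cldn5 (0.28), C1ql2 (0.24), Nectin3 (-0.24), Wfs1 (0.22, CA1), Aqp4 (-0.21, astrocyte), Vip (-0.15, interneuron), Mbp (-0.15) and P2ry12 (-0.14). None of these passed the adjusted threshold.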

How the data were processed

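Hippocampal poly(A) RNA of 30 mice was sequenced, 1 library per mouse. According to the study's methods and the submitters' processing notes, the authors used Trimmomatic 0.39 for trimming and Salmon 1.8.0 for quantification, and deposited estimated counts per gene as whole numbers, without normalization, in a table of genes with at least 100 counts over the mice. Total counts per library ran from 18809307 to 100844898. Their notes name GRCm39 (mm39), whereas positions and transcript lengths here are those of GENCODE vM1 on NCBIM37 and promoter windows those of RefSeq on GRCm38.p6, matched by gene ID or symbol and never converted. Lengths were found for 91.3% of the genes.

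The counts were analysed with edgeR 4.0.16 in R 4.3.3, within each sex, as in the study. The filter filterByExpr was applied (minimum count 10, minimum total 15), libraries were normalized with TMM, and surrogate variables from svaseq (sva 3.50.0, 20 permutations, seed 1) entered the model beside housing, 3 in females, 2 in males and 4 in the fit of all 30 mice. The quasi-likelihood test was used with Benjamini-Hochberg adjustment over all genes tested and a threshold of 0.05. CPM values are counts scaled to the TMM-normalized library size over all 30 mice and carry no surrogate-variable adjustment, so they need not have the ratio of the Log2FC. Log2 CPM used a prior count of 2. The design replaces the authors' DESeq2 with edgeR. DESeq2 1.42.0 and limma-voom (limma 3.58.1) were run as alternatives. The steps were tested on simulated data. Of 100 genes set to a 1.5-fold change they recovered 76 in females and 41 in males. Of 100 genes set to a 2-fold change they recovered 91 and 73. Unchanged genes called were 7 in females and 0 in males. The simulated counts varied independently between genes, with no length slopes and no mice that stood apart, so these rates need not hold for the real data. Groups came from the labels.

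The 7 genes, the gene lists and the tests were chosen with earlier results of these data known. The genes named are the 7, the DEGs and the gene with the largest Log2FC of each list in each sex, and the 3 genes most correlated with each of the 7. The result of 1 gene of the marker lists is not reported here, and list sums leave it out. List genes named for an unadjusted p, and mice named for their values, were chosen after the values were seen. The position digit used as an alternative is the digit in the sample titles.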

Additional observations from a re-analysis of the deposited data

Results flagged for a closer look

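In 2 of the 28 sets of mice examined (each of the 7 genes in each group) 1 mouse lay far from the rest of its group by Dixon's test at the 95% level, where chance alone marks about 1 set in 20. Both were high values of Pcp4. SI female 41 had 251 CPM, the next highest SI female having 169, and the gap was 0.579 of the group's range against a critical value of 0.526. The same mouse had the highest thalamus, striatum and medial habenula sums of all 30 mice (197, 157 and 53.6 CPM) and the lowest CA1 sum (303 CPM). GH male 15 had 184 CPM, the next highest GH male having 139, with a gap of 0.656 of the range against 0.526. No explanation was tested for either value.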

How the results depend on the processing

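The number of the 7 genes called stayed at 0 in females under all alternatives (10 settings and each mouse left out), and in the interaction and in GH females against GH males under all 6 settings run. In males it stayed at 0 under 11 settings and was between 0 and 1 with each mouse left out, the 1 being Pcp4 without SI male 27. Over all genes the DEGs in females numbered 624 and 0 without surrogate variables, 0 with the position digit as a factor in place of surrogate variables, 1234 with DESeq2, 941 with the length and GC trend removed and 88 to 1374 with each mouse left out. Those in males numbered 24 with DESeq2 and 2413 without SI male 27, and those between GH females and GH males 16 without surrogate variables, 1904 with DESeq2 and 150 without SI males 25, 33 and 39.

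No female Log2FC changed sign except with single mice left out, over which Oxtr ranged from -0.10 to 0.028, Avpr1a from -0.28 to 0.0495 and Amigo2 from -0.052 to 0.13. The male Log2FC of Oxtr became 0.0012 with DESeq2 size factors, 0.0295 with the length and GC trend removed, 0.076 with all groups in 1 fit and 0.13 with the length slope as a covariate. That of Rgs14 became -0.023 with limma-voom, -0.0088 with the position digit, -0.021 with the length and GC trend removed, -0.072 without SI males 25, 33 and 39 and -0.0030 as a difference of log2 CPM. That of Amigo2 became -0.0054 with limma-voom, -0.044 with the position digit and -0.013 without the 3 males, that of Necab2 -0.0026 without them, and that of Avpr1a 0.35 with the thalamus covariate. With single males left out Oxtr ranged from -0.065 to 0.041 and Avpr1a from -0.32 to 0.23. In the interaction, without surrogate variables, Oxtr became 0.13, Amigo2 0.050 and Pcp4 -0.51. With limma-voom these were 0.012, 0.024 and -0.15, and without the 3 males Avpr1a was -0.061, Amigo2 0.031 and Pcp4 -0.012. Between GH females and GH males Necab2 became 0.054 without the 3 males. The cause of these changes was not tested. The covariates of length slope and of thalamus markers, and the correlations with the length slope regressed out, were added after seeing the data, as were the differences of list genes without SI males 25, 33 and 39.

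No paired analysis was possible because animal numbers are unique and the groups share none. The depth limits Avpr1a and Avpr1b most, at a median of 14 and 13 counts per library. Replicates are single mice, cage mates are not given, and 3 of the 7 SI males stand apart in length slope while no GH mouse does, so that for them housing and length slope cannot be told apart.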
